A study of Rattus norvegicus with 21 samples.

Results

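Transcript counts of the rat bladder wall were compared between spinal cord–injured and uninjured animals at 2 weeks, the earliest time sampled after injury. The comparison rests on 6 of the 21 libraries of the series, namely every library labelled SCI (spinal cord injury) or control at 2 weeks. The 3 SCI libraries came from male Sprague Dawley rats, an outbred strain, whose cord had been completely transected at the thoracic level T8, and the 3 control libraries came from rats of the same sex and strain without injury. Animals were 6 to 7 weeks old at the start. Each library was made from full-thickness bladder. Titles of SCI libraries each carry a code of their own, whereas control titles share a code per week with the replicate number added. The labels do not say that each control library came from a different rat. The spread between libraries was treated as including the spread between rats. The remaining 15 libraries are SCI bladders at 8 and 16 weeks and controls at 0, 8 and 16 weeks, with 3 in each group, and they set the 2-week values in context. They also entered the fit. By edgeR's quasi-likelihood test (adjusted p under 0.05), 4 genes were called at 2 weeks when the 2-week libraries alone were fitted. That test called 9 without the 0-week controls or without control 0 weeks replicate 1, against 0 with all libraries. With all libraries, DESeq2's Wald test called 64 and edgeR's likelihood ratio test 69.

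The bladder stores and expels urine under control of the spinal cord and brainstem. Complete transection above the lumbar cord first leaves the bladder areflexic, a state called spinal shock, after which reflex contractions return without coordination with the urethral sphincter. The wall then works against a functional obstruction, and its smooth muscle, urothelium and connective tissue are known to remodel. A bladder homogenate mixes all of these cells, so fewer cells of a type and less RNA per cell cannot be told apart in any difference below.

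Total counts ranged from 8477750 to 12273238 per library, so a level of 1 CPM, the count scaled to the size of its library, rested on about 8.48 to 12.3 counts. Each SCI library held fewer counts (8477750 to 9584812) than any control (9902364 to 12273238), and the part of this depth difference in the results was not tested. Of the 32754 genes in the table, 22487 had a count in at least 1 of the 6 libraries and 15225 held enough counts to be tested. The gene table at hand paired none of the identifiers in the counts with symbols. Bladder cell type markers were therefore not checked, gene families were not followed, and only 4 genes are given by identifier. The results are described by the size, separation and later course of the differences.

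The first question was how far the arms stood apart. Expressed as the root mean square difference of log2 CPM over tested genes, libraries of the same arm lay 0.395 to 0.446 apart and libraries of different arms 0.426 to 0.542 apart. These ranges overlapped. SCI replicate 3 was the farthest from the controls, with a mean distance of 0.516, whereas SCI replicates 1 and 2 stood at 0.449 and 0.442. On the first principal component, which held 35.5% of the variance, the controls scored -23.1, -7.68 and -25.6 and the SCI libraries 15.4, 6.18 and 34.7. The arms were thus on opposite sides of this component, with control replicate 2 and SCI replicate 2 nearest to each other. The division into SCI and control took up 31.6% of the summed squared deviations among the 6 libraries (one-sided exact permutation p = 0.1, the smallest that 3 against 3 libraries can give). The same share was 42.3% at 8 weeks and 43.6% at 16 weeks.

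**Figure D1:**
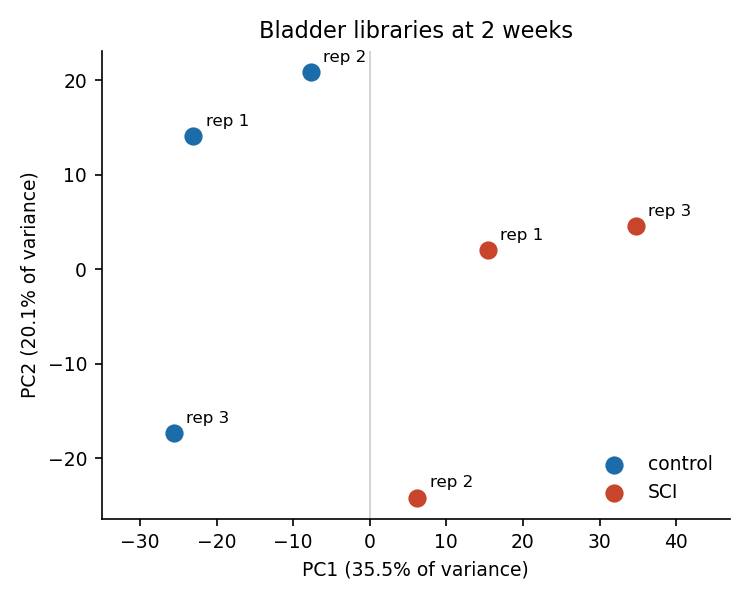
Scores of the 6 libraries at 2 weeks on the first (x axis) and second (y axis) principal components of log2 CPM over tested genes, with controls in blue and SCI in red. The 3 controls lie at or below -7.68 and the 3 SCI libraries at or above 6.18 on the first component. The second, with 20.1% of the variance, separates libraries within each arm.

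No gene reached the threshold at 2 weeks. With edgeR's quasi-likelihood test, 0 of 15225 genes (0%) had a Benjamini-Hochberg adjusted p under 0.05, while 1016 (6.67%) were under 0.05 before adjustment, where evenly spread p-values would give 761. DESeq2's Wald test called 64 genes and edgeR's likelihood ratio test 69. The smallest adjusted p of the quasi-likelihood test was 0.134. Under an adjusted p of 0.2 there were 20 genes with a higher and 29 with a lower level after SCI, and under 0.25 there were 25 and 51. Most differences were small, as the median absolute log2 fold change was 0.12, beside a median standard error of 0.18, and 90.1% of tested genes had an absolute log2 fold change under 0.5. The median log2 fold change over all tested genes was 0.0017.

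To describe the tail of the distribution, genes were set apart whose unadjusted p was under 0.05 and whose log2 fold change was 0.5 or more in size. This looser criterion uses the p and fold limits that the study's methods give for its heatmaps, without their CPM minimum, whereas those methods call differential expression by adjusted p. It does not control for the number of genes tested, so its 620 genes are described and not called. Of these, 180 (1.18% of tested genes) had a higher level and 440 (2.89%) a lower level after SCI. The higher genes had a median log2 fold change of 0.88, equal to 1.83-fold, and 67 of them exceeded 1 on the log2 scale. The lower genes had a median absolute log2 fold change of 0.94, equal to 1.92-fold, and 200 exceeded 1. Differences beyond 2 on the log2 scale were found for 13 higher and 41 lower genes, and 5 and 29 of these had an average log2 CPM under 1, where counting error is large. Without SCI replicate 3, the library farthest from the controls, 163 higher and 292 lower genes met the criterion, and without SCI replicate 2 there were 199 and 591.

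Most of the looser set came from genes of low to moderate level. Among 1772 genes with an average log2 CPM under 1, 37 were higher and 101 lower, and among 2702 genes from 1 to 3, 85 were higher and 159 lower. The share of genes that met the criterion was 9.03% in the latter class. Of the 4621 genes from 5 to 7, 14 were higher and 55 lower, and of the 1524 genes at 7 or more, 4 were higher and 19 lower. Precision differed in parallel, with a median standard error of 0.47 under 1 and 0.12 at 7 or more. The excess of lower over higher genes was present in each of the 5 classes of level.

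**Figure D2:**
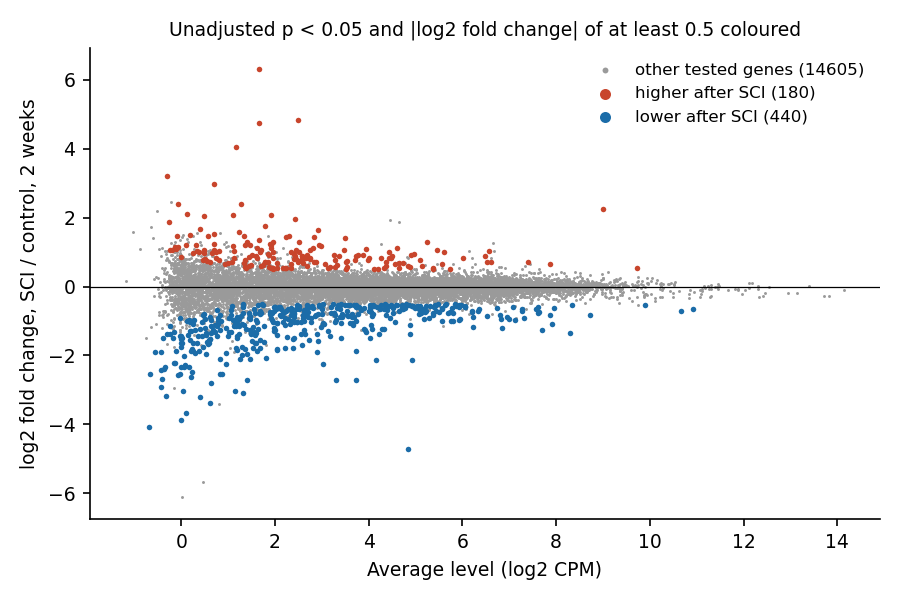
Log2 fold change of SCI over control at 2 weeks (y axis) against average log2 CPM (x axis) for each tested gene, with the 180 higher genes of the looser criterion in red, the 440 lower genes in blue and other genes in grey. The coloured genes gather at low to moderate levels, and lower genes outnumber higher genes.

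Separation was also counted without a model. The 3 SCI libraries lay wholly above the 3 controls for 1097 genes (7.21%) and wholly below them for 1284 genes (8.43%), together 15.6% of tested genes. At 8 and 16 weeks the corresponding shares were 28.6% and 35.9%. With 3 libraries per arm, part of the genes separate fully without any effect of the arm, and these shares are not corrected for that part. Of the 15225 tested genes, the arms were separated in the same direction at all 3 weeks for 164 with higher and 316 with lower levels after SCI. Within the looser set, the arms did not overlap for 141 of the 180 higher and 370 of the 440 lower genes, a description only, since the same libraries chose these genes. In both directions the arm with the lower level had the larger median SD. Among higher genes the median SD of log2 CPM was 0.381 in controls and 0.239 in SCI, whereas among lower genes it was 0.286 in controls and 0.326 in SCI, beside 0.142 and 0.151 over all tested genes. Counting error and spread between animals were not separated in these values.

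Both genes with the smallest p among those with a higher level after SCI are given with the value in each library, together with both genes of the lower kind. Levels are CPM after scaling by TMM factors (trimmed mean of M values). All 4 were taken for their small p at 2 weeks, with an average log2 CPM of at least 1 and no overlap between arms, so their separation at 2 weeks is a description.

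ENSRNOG00000055390 had levels of 8.65, 18.4 and 12.6 CPM in the 2-week controls and 25.4, 25.6 and 28.7 CPM in SCI. Its mean was 13.2 ± 4.91 CPM (SD, n = 3) in controls and 26.6 ± 1.83 CPM (SD, n = 3) in SCI. The log2 fold change was 1.00 (SE 0.17, 95% interval 0.64 to 1.36, edgeR adjusted p = 0.134; DESeq2 adjusted p = 0.000378). The SCI libraries were close together and the controls were spread, with control replicate 2 nearest to SCI. In the other groups its means lay between 20.0 and 24.5 CPM, above the 2-week controls and below the 2-week SCI libraries. The log2 fold change was 0.14 at 8 weeks (edgeR adjusted p = 0.639) and 0.14 at 16 weeks (edgeR adjusted p = 0.626), and neither differed from the 2-week value past the threshold (edgeR adjusted p of the difference 0.407 and 0.615).

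ENSRNOG00000043249 was near the limit of counting in the controls, with 3, 0 and 3 counts (0.268, 0 and 0.304 CPM), and had 47, 44 and 55 counts (4.76, 4.56 and 6.09 CPM) in SCI. The fitted log2 fold change of 4.74 (SE 0.93, 95% interval 2.79 to 6.70, edgeR adjusted p = 0.143; DESeq2 adjusted p = 0.000378) therefore rests on 6 control counts. It was 4.11 without control 2 weeks replicate 2, the library with 0 counts, and ranged from 4.11 to 5.21 over 17 alternatives. Among controls of other weeks, 1 library, replicate 3 of 0 weeks, was as low (2 counts, 0.223 CPM), and the other 8 ranged from 0.949 to 4.85 CPM. The mean was 2.01 ± 2.49 CPM (SD, n = 3) in 0-week controls, 3.00 ± 0.712 CPM (SD, n = 3) at 8 weeks and 1.47 ± 0.290 CPM (SD, n = 3) at 16 weeks. At 8 weeks the log2 fold change was 0.37 (edgeR adjusted p = 0.747) and at 16 weeks 1.85 (edgeR adjusted p = 0.0941).

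ENSRNOG00000060407 had the smallest p of all genes and a lower level after SCI, with 4.37, 3.79 and 3.96 CPM in controls and 1.22, 1.04 and 0.554 CPM in SCI. Means were 4.04 ± 0.298 CPM (SD, n = 3) and 0.935 ± 0.343 CPM (SD, n = 3). Its log2 fold change was -2.09 (SE 0.35, 95% interval -2.81 to -1.36, edgeR adjusted p = 0.134; DESeq2 adjusted p = 0.00111), and the SCI values rest on 12, 10 and 5 counts. The difference was present at the later weeks, at -3.20 on the log2 scale for 8 weeks (SE 0.37, edgeR adjusted p = 0.000396) and -2.43 for 16 weeks (SE 0.34, edgeR adjusted p = 0.00255). The 4 control groups had means from 4.04 to 5.75 CPM and the 3 SCI groups from 0.553 to 1.07 CPM, so no control group overlapped an SCI group.

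ENSRNOG00000020369 had 24.7, 26.9 and 39.1 CPM in controls and 15.6, 14.0 and 12.0 CPM in SCI. Here the controls were the more spread, at 30.2 ± 7.72 CPM (SD, n = 3) against 13.9 ± 1.83 CPM (SD, n = 3). The log2 fold change was -1.12 (SE 0.20, 95% interval -1.54 to -0.70, edgeR adjusted p = 0.143; DESeq2 adjusted p = 0.000661). It was -0.96 at 8 weeks (edgeR adjusted p = 0.014) and -1.51 at 16 weeks (edgeR adjusted p = 0.00255). Both genes with lower levels thus fell past the threshold at 8 and 16 weeks, and neither gene with higher levels rose past it at either week.

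**Figure D3:**
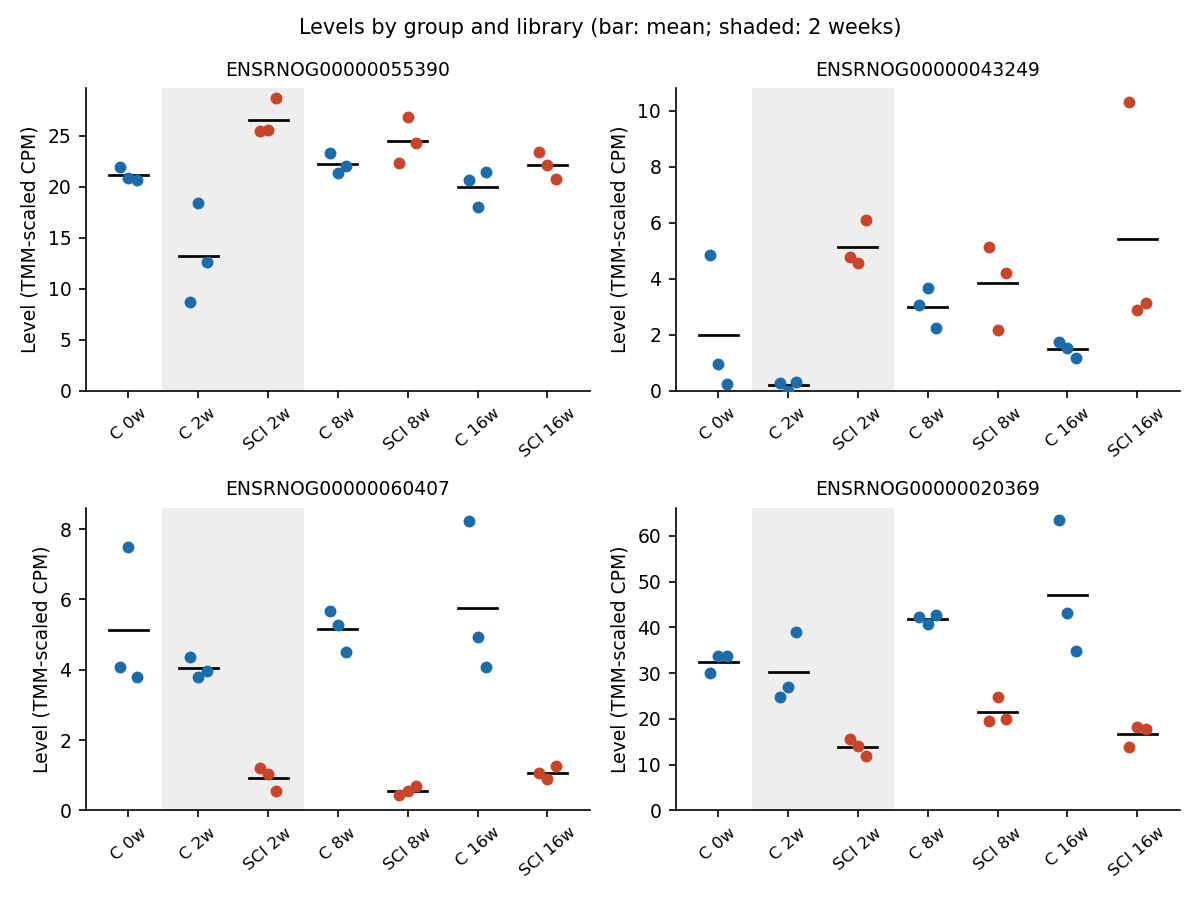
Levels of 4 genes in TMM-scaled CPM (y axis, from 0) in each library of the 7 groups (x axis; C, control, blue; SCI, red), with a bar at the mean of 3 libraries and the 2-week groups shaded. In both upper panels the 2-week controls have the lowest mean, and in both lower panels each SCI mean lies below each control mean.

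The later course of the 2-week differences was followed next, in SCI and control bladders that shared no animal with those at 2 weeks. The shares of the 440 lower genes are given beside those of all tested genes with a lower level at 2 weeks, which include the 440 and are mostly genes with small differences. At 8 weeks, 359 of them (81.6%) had the same direction, against 65.3%, and 238 (54.1%) had it with an unadjusted p under 0.05, against 23.9%. At 16 weeks, 378 (85.9%) had the same direction, against 66.9%, and 199 (45.2%) had it with an unadjusted p under 0.05, against 23.2%. Their median log2 fold change was -0.94 at 2 weeks, -0.75 at 8 weeks and -0.70 at 16 weeks.

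Past the adjusted threshold of edgeR's quasi-likelihood test, 147 of the 440 genes fell at 8 weeks, where 782 of all tested genes (5.14%) fell, and 77 fell at 16 weeks, where 493 (3.24%) did. These are 33.4% and 17.5% of the 440 genes, against 8.98% and 5.67% of all tested genes with a lower level at 2 weeks. Both weeks were passed by 50 of them (11.4%), beside 2.34% of all tested genes with a lower level. The looser set held 18.8% of the genes that fell at 8 weeks and 15.6% of those that fell at 16 weeks. In the opposite direction, 1 of the 440 genes rose at 8 weeks and 1 at 16 weeks, beside 60 and 46 of all 7548 tested genes with a lower level at 2 weeks.

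The 180 higher genes gave different values. At 8 weeks, 109 (60.6%) had the same direction, against 65.9% of all tested genes with a higher level at 2 weeks, and 29 (16.1%) had it with an unadjusted p under 0.05, against 20.6%. At 16 weeks, 116 (64.4%) had the same direction, against 62.4%, and 35 (19.4%) had it with an unadjusted p under 0.05, against 19.1%. With all libraries these shares were near or under the background, and without single 2-week libraries some lay above it, as given with the other settings. The median log2 fold change was 0.88 at 2 weeks, 0.16 at 8 weeks and 0.14 at 16 weeks. Past the adjusted threshold, 9 of the 180 genes rose at 8 weeks, where 499 of all tested genes (3.28%) rose, and 8 rose at 16 weeks, where 362 (2.38%) did. These are 5.0% and 4.44% of the 180 genes, against 5.72% and 4.12% of all tested genes with a higher level at 2 weeks. The set held 1.80% of the genes that rose at 8 weeks and 2.21% of those that rose at 16 weeks, and 4 of the 180 (2.22%) rose at both, beside 1.75% of all tested genes with a higher level. Another 4 of the 180 fell at 8 weeks and 1 fell at 16 weeks, beside 104 and 65 of all 7676 tested genes with a higher level at 2 weeks.

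The contrast between directions was examined under other settings. Fitting each week alone on its own libraries, so that not even the estimate of spread was shared, left 83.8% of lower genes with the same direction at 8 weeks (all tested, 65.2%) and 86.5% at 16 weeks (66.4%). In that fit, higher genes had the same direction in 65.1% at 8 weeks (66.9%) and 67.7% at 16 weeks (64.5%). Scaling by library size only moved the background itself, to 83.4% for higher and 46.1% for lower genes at 8 weeks, and the looser sets then stood at 71.9% and 78.7%. Single libraries moved these shares in both sets. For the higher genes, the share with the same direction and an unadjusted p under 0.05 was 9.20% at 8 weeks (all tested, 17.4%) and 12.3% at 16 weeks (14.7%) when replicate 3 of the 2-week SCI arm was left out. When replicate 2 of that arm was left out it was 25.6% at 8 weeks (21.0%) and 29.1% at 16 weeks (19.4%), above the background. Without replicate 2 of the 2-week controls it was 23.8% at 16 weeks (18.1%), where 70.0% had the same direction (62.8%). For the lower genes the share was 46.2% at 8 weeks (20.2%) and 38.0% at 16 weeks (19.5%) without SCI replicate 3, and 51.8% (24.0%) and 56.5% (24.7%) without SCI replicate 2. The difference between the sets was not tested.

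**Figure D4:**
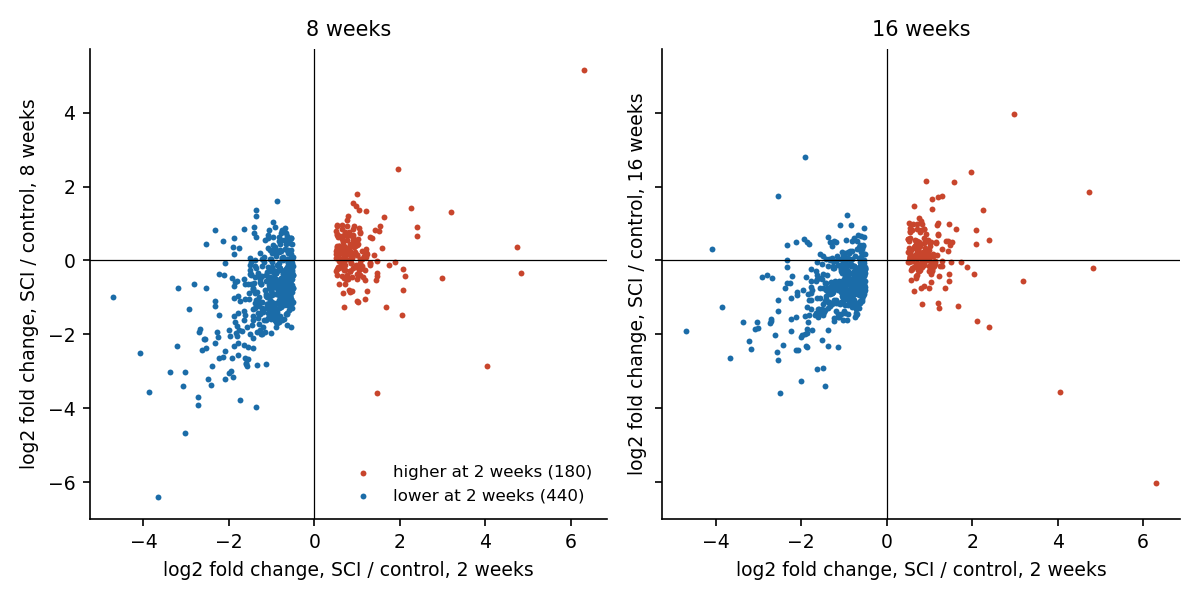
Log2 fold change of SCI over control at 8 weeks (left, y axis) and 16 weeks (right, y axis) against that at 2 weeks (x axis) for the 180 higher (red) and 440 lower (blue) genes of the looser criterion. Of the lower genes, 81.6% lie below 0 at 8 weeks and 85.9% at 16 weeks, and of the higher genes 60.6% and 64.4% lie above 0.

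Which arm stood away from the other bladders was then described. Each 2-week group mean of log2 CPM was set against the mean of the 9 controls from 0, 8 and 16 weeks. For the 440 lower genes the 2-week controls were level with the other controls, with a median distance of -0.02, and the 2-week SCI libraries lay below them, with a median of -0.89. For the 180 higher genes both arms were displaced, as the 2-week controls had a median distance of -0.40 and the SCI libraries 0.50. The control arm was the farther of both in 84 of the 180 higher genes (46.7%) and in 67 of the 440 lower genes (15.2%), beside 35.7% and 33.3% of all tested genes with a higher and a lower level after SCI. All 3 SCI libraries lay beyond each of the 9 other controls for 30 higher genes (16.7%) and 170 lower genes (38.6%), beside 8.59% and 10.2% of all tested genes with a higher and a lower level. All 3 controls of 2 weeks lay beyond them on the opposite side for 12 (6.67%) and 10 (2.27%), beside 1.76% and 1.51%.

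These distances describe sets chosen with the same 2-week libraries, and age differs between the control groups. Leaving out each 2-week library in turn or scaling by library size moved the median of the 2-week controls from -0.63 to -0.23 for higher genes and from -0.06 to 0.12 for lower genes. The value nearest 0 for higher genes, -0.23, was obtained without SCI 2 weeks replicate 2, and the farthest, -0.63, without control 2 weeks replicate 3. The median of the SCI libraries ranged from 0.41 to 0.69 and from -0.95 to -0.80.

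**Figure D5:**
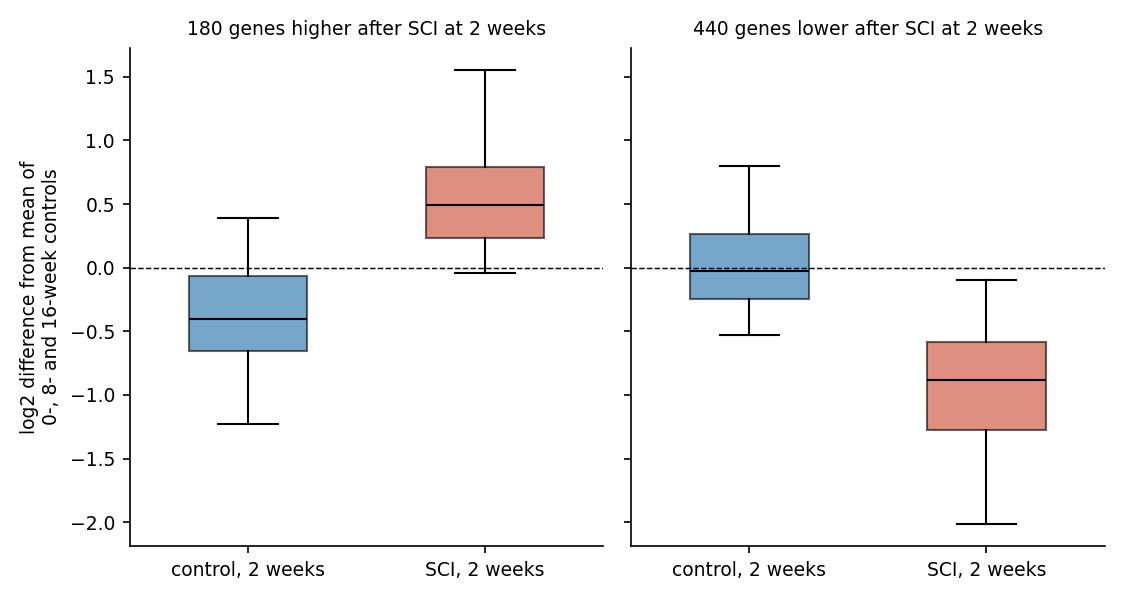
Distance of the 2-week control (blue) and SCI (red) group means from the mean of the 0-, 8- and 16-week controls, in log2 CPM (y axis), for the 180 higher and 440 lower genes; boxes give the median and quartiles over genes and whiskers the 5% and 95% points. Medians are -0.40 and 0.50 for higher genes and -0.02 and -0.89 for lower genes.

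The genes that passed DESeq2's threshold at 2 weeks were described in the same way. They were chosen with the same 6 libraries, so they are no separate check of the 2-week values. DESeq2 called 22 genes higher (0.144% of tested genes) and 42 lower (0.276%) after SCI, and each of these 64 had an unadjusted p under 0.05 in edgeR's quasi-likelihood test, with adjusted p from 0.134 to 0.277. The arms did not overlap for 63 of them, beside 15.6% of all tested genes, as the choice by the same libraries favours. The higher genes had absolute log2 fold changes from 0.32 to 4.81 with a median of 1.01, and the lower genes from 0.47 to 3.46 with a median of 1.37. At 8 weeks 15 of the 22 higher genes had the same direction and 0 had risen by edgeR's quasi-likelihood test, and at 16 weeks 13 had the same direction and 1 had risen. Among all tested genes with a higher level at 2 weeks, 65.9% and 62.4% had the same direction at these weeks and 5.72% and 4.12% had risen. Of the 42 lower genes, 41 and 39 had the same direction at 8 and 16 weeks, and 29 and 16 had fallen, beside 65.3% and 66.9% with the same direction and 8.98% and 5.67% fallen among all tested genes with a lower level. For the 22 higher genes the median distance from the other controls was -0.53 for the 2-week controls and 0.45 for SCI, and all 3 SCI libraries lay above each of the 9 other controls for 7 (31.8%, beside 8.59% of all tested genes with a higher level). For the 42 lower genes the medians were -0.01 and -1.25, and all 3 SCI libraries lay below each of the 9 other controls for 31 of the 42 (73.8%, beside 10.2% of all tested genes with a lower level).

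An interaction term tested directly whether the response to SCI depended on the week. Between 2 and 8 weeks, 3 genes passed by edgeR's quasi-likelihood test and 1308 were under 0.05 before adjustment, while DESeq2 called 28 and the likelihood ratio test 34. No gene passed for 16 against 2 weeks with this test, where 1180 had an unadjusted p under 0.05, the smallest adjusted p was 0.177, and DESeq2 and the likelihood ratio test called 6 and 8. Within the looser set, an unadjusted p under 0.05 in at least 1 of both interactions was found for 96 of the 180 higher (53.3%) and 106 of the 440 lower genes (24.1%), beside 14.8% and 14.0% of all tested genes with a higher and a lower level. These counts share the 2-week libraries with the choice of the set, and nothing is read from them beyond the number.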

How the data were processed

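RNA of full-thickness rat bladder was measured in 21 stranded, ribosomal RNA-depleted libraries. The authors deposited raw counts per Ensembl gene, not normalized, with both flow cells of a library added together. The submitters' processing notes name Rnor_6.0, FastQC 0.11.9, MultiQC 1.13, Trim Galore 0.6.10, STAR 2.7.10a, SAMtools 1.17, Subread and featureCounts 2.0.3. The strand setting in counting is not given in the sources used here, so overlapping, antisense and near-identical genes may share reads. All libraries carry the same batch label, so no batches could be compared.

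All 21 libraries were fitted with edgeR 4.0.16 (R 4.3.3) by the quasi-likelihood method with 7 group means, TMM factors (0.997 to 1.07 at 2 weeks) and filterByExpr, which left 15225 genes and 14 residual degrees of freedom. Adjustment of p-values followed Benjamini and Hochberg over all tested genes, at a threshold of 0.05. Log2 CPM used a prior count of 2. DESeq2 1.42.0 was an alternative. Scripts were tested on simulated data. Replicates differed by more than sampling noise (chi-square per degree of freedom 7.51 to 17.5 within arms).

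The comparison, the lists and the alternatives were chosen with earlier results of these data known. A RefSeq gene table matched 0 of 32754 identifiers, so the planned gene lists, cell type markers and promoters were not used. Genes are named by the rule for that case, which takes the 2 identifiers with the smallest p in each direction among those with average log2 CPM of at least 1 and no overlap. The rule spoke of genes that rose or fell, and since 0 genes were called by edgeR (1016 at unadjusted p under 0.05; 64 by DESeq2, 69 by the likelihood ratio test), it was applied to the direction of the level. Alternatives were other scaling, filters and tests, fewer groups, a replicate block and each library left out. Settings for the later course and for the distance from other controls, the newer quasi-likelihood method, and the omission of libraries from other weeks were chosen once the data had been seen.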

Additional observations from a re-analysis of the deposited data

Results flagged for a closer look

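A direct test of the difference found 3 genes whose SCI effect differed between 8 and 2 weeks (edgeR's quasi-likelihood test, adjusted p under 0.05), each with a lower log2 fold change at 8 weeks. The first had a log2 difference between weeks of -1.66 (SE 0.23, edgeR adjusted p = 0.0127). Its mean was 85.1 CPM in controls and 103 CPM in SCI at 2 weeks, where the arms overlapped, and 147 CPM and 56.7 CPM at 8 weeks. The second was a gene of low level, whose difference was -5.04 on the log2 scale (SE 0.83, edgeR adjusted p = 0.0405), and means of 0.604 and 1.71 CPM at 2 weeks and 3.19 and 0.252 CPM at 8 weeks. The third differed by -2.10 on the log2 scale (SE 0.34, edgeR adjusted p = 0.0405) and had means of 3.27 and 6.55 CPM at 2 weeks and 8.55 and 3.99 CPM at 8 weeks. For all 3, the mean of the controls was higher at 8 than at 2 weeks. Single libraries decided the count. Among controls, omitting replicate 1 of 2 weeks or replicate 2 of 8 weeks left 0 genes, as did omitting replicate 1 or 3 of the 8-week SCI arm. A single gene (1) was left without replicate 3 of the 2-week controls, without any single one of the 2-week SCI libraries, or without replicate 2 of the 8-week SCI arm.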

How the results depend on the processing

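The count of 0 genes at 2 weeks was kept by RLE factors, library size only, no count filter, the CPM filter, and the newer quasi-likelihood method. DESeq2's Wald test gave 64, the likelihood ratio test 69, the fit of only the groups compared 4 and the fit without the 0-week controls 9. Leaving out 1 library of the 21 gave from 0 to 9 genes, with 9 without control 0 weeks replicate 1, 3 without control 16 weeks replicate 1 or 3, and 1 when either replicate 2 of the 0-week controls or that of the 2-week controls was omitted. The looser count stayed within 1.5 times 620 in total under each setting run (455 to 892), but with no count filter 295 genes were higher, against 180, and without SCI 2 weeks replicate 3 there were 292 lower, against 440. The interaction of 8 with 2 weeks gave 28 genes with DESeq2 and 34 with the likelihood ratio test, and 1 each with library size only, only the groups compared (in the opposite direction) and without the 0-week controls. Leaving out 1 of the 12 libraries compared gave 0 to 3. The interaction of 16 with 2 weeks gave 6, 8 and 2 genes with DESeq2, the likelihood ratio test and only the groups compared, and 0 when 1 of the 12 libraries of those weeks was left out (libraries of other weeks were not left out for this result; edgeR's quasi-likelihood test; 1180 at unadjusted p under 0.05 with all libraries). The share of genes whose arms did not overlap was 23.4% to 31.3% when 1 library of the 6 was left out, since fewer libraries overlap less by construction. Elsewhere the cause was not tested. For the 4 genes given by identifier, no direction was reversed in 17 alternatives each, over which adjusted p ranged from 0.000227 to 0.567. All 4 passed the threshold with DESeq2 and the likelihood ratio test, ENSRNOG00000055390 also without control 2 weeks replicate 2, ENSRNOG00000043249 also with only the groups compared and without the 0-week controls, and ENSRNOG00000060407 also without the 0-week controls.

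Replicate numbers did not pair the samples. Deviations of same-numbered control and SCI libraries correlated at 0.12, -0.14 and -0.10, and not every library correlated best with its own number. With the replicate number as a block, 0 genes were called at 2 weeks (1118 at unadjusted p under 0.05), 667 met the looser criterion, and the interactions gave 2 and 0 genes.

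The depth limits genes near 1 CPM, which rested on about 8.48 to 12.3 counts, and 3 libraries per arm limit all of them. Alternatives for gene lists were not run because the gene table at hand paired no identifier with a symbol.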

Other observations

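At 2 weeks, 7263 genes had a count but were too low to be tested. Of these, 38 had counts in all 3 SCI libraries and none in the controls. Another 66 had counts in all 3 controls and none in SCI. Their summed counts over the 3 libraries with signal had a median of 4 in both cases and reached 7 in SCI and 11 in controls. A group at 0 counts does not fix a level, so no fold is given. The controls held more counts per library than the SCI bladders.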
